A study of Mus musculus with 6 samples.

Results

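The crossover formation genes Msh4, Msh5, Mlh3, Rnf212, Ccnb1ip1, Tex11, Shoc1 and M1ap were followed in the messenger RNA of whole mouse testes. They were chosen by name, and all 8 were found among the 22274 genes of the deposited count table. They were matched through the reference symbols of the Ensembl IDs, and Shoc1 through a RefSeq synonym. The deposited symbol equalled the member name in 7, and that of Mlh3 is given in capitals. The 6 libraries are labelled day 9, with no statement of the event from which days were counted. Of these, 3 are called control in the labels, without an account of their alleles, and 3 come from cKO mice, in which Stra8-Cre acts on floxed Dcaf2 (Dcaf2fl/fl) in germ cells. The Stra8 promoter drives Cre in spermatogonia and not in the somatic cells of the testis. The labels number the libraries 1 to 3 in each group and leave it unsaid if a number stands for 1 animal, so the spread between libraries may be partly technical. The study, by its title, concerns how DCAF2, the substrate receptor of a CRL4 ubiquitin ligase, acts on progenitor spermatogonia.

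In meiosis, programmed DNA breaks are repaired against the homologous chromosome, and a minority of these events mature into crossovers, which hold homologues together until the first division. The MSH4-MSH5 heterodimer, a meiotic relative of the mismatch repair clamps, stabilises recombination intermediates. SHOC1, TEX11 and SPO16 form the mammalian counterpart of the yeast Zip2-Zip4-Spo16 complex, with which M1AP associates. RNF212 and HEI10, the product of Ccnb1ip1, are RING proteins that select which intermediates go forward, and MLH3 belongs to the endonuclease that completes most crossovers.

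Totals ran from 15407007 to 18372964 counts per library. Dtl, the current symbol of Dcaf2, was at 42.6, 50.3 and 77.3 CPM (counts relative to library size, with TMM scaling) in control testes, against 41.7, 43.8 and 51.4 CPM in cKO testes. The groups overlapped, and the log2 fold change, always given as cKO against control, was -0.31 (edgeR adjusted p = 0.281; -0.51 and 0.0321 without control library 1; -0.02 and 0.923 without control library 3; adjusted p 0.0321 to 0.923 over all alternatives). Transcripts without the deleted exons are still counted for the gene, so this is a loose check of the labels. The tissue label was borne out by its markers: 8 pan-germ-cell genes summed to between 1100 and 1470 CPM in the controls and between 414 and 536 CPM in the cKO libraries. All 8 were lower in the cKO (edgeR adjusted p under 0.05). The 8 Sertoli cell genes summed to 3580 to 4910 CPM and 4850 to 5570 CPM, with 5 higher, and 7 Leydig cell genes to 439 to 914 CPM and 1010 to 1040 CPM, with 2 higher. Control library 1 stood apart from controls 2 and 3 in some somatic genes. Cyp17a1 was at 200 against 32.9 and 20.2 CPM, and Star at 150 against 52.8 and 25.6 CPM. Sertoli genes varied in this. Wt1 was alike in all controls (267, 269 and 250 CPM), but control library 1 was highest for Amh (382, 214 and 217 CPM). The same held for Clu (3130, 2190 and 2100 CPM). Sox9 (170, 184 and 135 CPM) and Kitl (378, 446 and 363 CPM) were highest in control library 2. Of 5 macrophage genes 1 was higher, with sums of 70.5 to 82.5 CPM and 100 to 115 CPM, and of 4 endothelial genes 3 were higher, with sums of 171 to 200 CPM and 239 to 273 CPM. The 5 peritubular myoid genes were at 1190 to 1220 and 1190 to 1240 CPM, and 5 erythroid genes at 166 to 658 and 227 to 435 CPM. Of 8 spermatid genes, Prm2, Tnp2 and Acrv1 had no count in any library, and the sum reached at most 2.46 CPM. The 8 genes of undifferentiated spermatogonia summed to 296 to 431 CPM in control and 232 to 280 CPM in cKO testes (2 lower, 1 higher), and 8 of differentiation and meiotic entry to 347 to 504 and 118 to 153 CPM (7 lower). What part these shifts had in the results below was not tested. In whole testes, fewer germ cells and less RNA per germ cell cannot be told apart, and this holds for each fall described here.

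Per unit of transcript length, the 8 genes spanned a wide range in control testes. In the FPKM values that the authors deposited, Tex11 had the highest mean level (28.3 ± 5.01 FPKM, mean ± SD, n = 3), followed by M1ap (22.9 ± 2.13), whose range overlapped with that of Tex11. Mlh3 stood apart from both at 7.22 ± 0.855 FPKM. Rnf212 (4.04 ± 0.707 FPKM) and Ccnb1ip1 (3.96 ± 0.653 FPKM) overlapped, as did Msh5 (1.77 ± 0.196 FPKM) and Shoc1 (1.40 ± 0.384 FPKM). Msh4 was lowest, at 0.630 ± 0.212 FPKM, with a range below that of every other member. The order was different in the cKO testes, where Tex11 (7.69 ± 0.886 FPKM) and Mlh3 (6.96 ± 0.713 FPKM) overlapped and M1ap (4.44 ± 0.763 FPKM) lay below both. Rnf212 moved from above Msh5 to a mean of 0.833 ± 0.139 FPKM, within the range of Msh5 (0.913 ± 0.150 FPKM).

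Promoter sequence is shown for 3 members that were lower in the cKO and for Mlh3, which was not, so that the letters can be set beside the measurements. Each is the stretch of 250 bases before a transcript start, from RefSeq on GRCm38.p6, read 5′ to 3′ on the strand of the gene. The sources used here do not name the build behind the deposited counts. Capitals mark matches to TCCCGC, a core of E2F family sites, and to CNCCTCAG, a motif reported for STRA8, on either strand.
M1ap (chr6:82946672-82946921, + strand): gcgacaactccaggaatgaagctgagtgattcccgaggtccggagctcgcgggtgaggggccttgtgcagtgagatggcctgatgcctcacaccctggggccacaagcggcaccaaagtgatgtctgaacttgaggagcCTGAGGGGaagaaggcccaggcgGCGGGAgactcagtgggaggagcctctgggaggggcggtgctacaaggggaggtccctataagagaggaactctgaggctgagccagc
Rnf212 (chr5:108775028-108775277, - strand): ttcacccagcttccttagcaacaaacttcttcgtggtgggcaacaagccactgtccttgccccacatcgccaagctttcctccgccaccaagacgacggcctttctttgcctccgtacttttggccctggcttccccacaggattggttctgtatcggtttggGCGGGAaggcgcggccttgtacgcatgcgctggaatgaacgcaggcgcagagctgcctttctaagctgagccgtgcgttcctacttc
Ccnb1ip1 (chr14:50795729-50795978, - strand): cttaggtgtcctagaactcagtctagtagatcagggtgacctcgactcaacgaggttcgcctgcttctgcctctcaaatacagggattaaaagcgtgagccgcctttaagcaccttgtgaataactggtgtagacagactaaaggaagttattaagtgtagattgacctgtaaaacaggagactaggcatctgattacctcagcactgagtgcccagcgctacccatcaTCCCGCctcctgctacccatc
Mlh3 (chr12:85270600-85270849, - strand): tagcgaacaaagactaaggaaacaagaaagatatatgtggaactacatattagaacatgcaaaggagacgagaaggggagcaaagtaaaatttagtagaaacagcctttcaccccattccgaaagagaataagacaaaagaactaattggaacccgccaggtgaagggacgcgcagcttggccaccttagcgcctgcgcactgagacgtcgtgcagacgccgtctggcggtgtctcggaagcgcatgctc
Of the 8 members, 6 had an entry in the promoter table, and Tex11 and Shoc1 had none. The E2F-type letters were in the windows of 4 of the 6 genes (M1ap, Rnf212, Ccnb1ip1 and Msh5), against 16.9% of all 32851 windows of this length. They lay 88, 87, 21 and 65 bases before the start of these genes. The GC share of the 4 windows was 62.4, 57.6, 48.8 and 67.2%, against a median of 52.4% over all windows. Base composition was not accounted for, and a count of genes is set here beside a share of windows. The STRA8-type letters were in the windows of M1ap and Msh5, against 6.42% of all windows. The E-box CACGTG, searched in the same way, was in none of the 6, against 6.02% of all windows. In Mlh3 and Msh4 none of the 3 motifs was found. A match is a description of letters and not a mapped site, and the motifs do not overlap each other in these windows.

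Of the 8 crossover genes, 6 fell in the cKO testes, 0 rose, and Msh4 and Mlh3 did not pass the threshold (edgeR quasi-likelihood test with Benjamini-Hochberg adjustment over 14424 genes, adjusted p under 0.05). By DESeq2 and limma-voom the counts were the same, and 0 were higher at an unadjusted p under 0.05. Among all tested genes 13.9% were called lower and 11.1% higher, 25% in all. That background depended on single libraries: 3607 genes were called with all 6, 5256 without control library 1, 1795 without control library 3, and 1445, 1355 and 1933 without cKO library 1, 2 and 3. The median log2 fold change of the 8 was -1.73, against 0.03 over all tested genes. In 7 of the 8, every cKO library was below every control library, which held for 22.1% of all tested genes (22.5% for the opposite order). A fall of at least 2-fold was called in 5 of the 8, against 4.65% of all tested genes. Within the controls, library 2 was the highest for 6 members and library 1 the lowest for 6. Genes outside the members had this order too, such as Piwil2 (146, 261 and 237 CPM) and Brca2 (58, 136 and 107 CPM). Dnd1 did not (22.4, 19.9 and 20.4 CPM). The share of all genes with this order was not counted, so the order is not shown to be particular to the members. The summed level of the 8 members was 152 to 216 CPM in control and 74.9 to 86.2 CPM in cKO libraries.

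The genes of the SHOC1-TEX11-M1AP group fell 3.36-fold to 4.88-fold. M1ap (ENSMUSG00000030041), needed in mice for progression through the first meiotic prophase, had 35.5, 41.8 and 45.5 CPM in control testes, against 8.06, 7.22 and 9.89 CPM in cKO testes. The lowest control stood far above the highest cKO value. This was a 4.88-fold fall (-2.29 on the log2 scale, SE 0.153, edgeR adjusted p = 0.000175) and the 80th lowest fold change of 14424 genes. Tex11 (ENSMUSG00000009670), an X-linked gene whose product is the mammalian counterpart of yeast Zip4, had 71.5, 106 and 93.3 CPM in control testes, against 26.5, 22.1 and 27.9 CPM in cKO testes. The control values were more spread than the cKO values, and the fall was 3.54-fold (-1.82, SE 0.158, edgeR adjusted p = 0.000294). Shoc1 (ENSMUSG00000038598), the counterpart of Zip2, was at 4.32, 7.80 and 6.97 CPM in control testes, against 1.75, 2.23 and 1.66 CPM in cKO testes, a 3.36-fold fall (-1.75, SE 0.278, edgeR adjusted p = 0.00368). Control library 1 was the lowest control for all 3 genes, still above each cKO library. SPO16, their partner, is not analysed here because its name could not be matched to an ID.

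Both RING protein genes fell. Rnf212 (ENSMUSG00000055385), a dosage-sensitive crossover factor with SUMO ligase features, was at 3.01, 4.18 and 3.90 CPM in control testes, against 0.910, 0.645 and 0.929 CPM in cKO testes. These last rest on 14, 11 and 14 counts. The fall was 4.45-fold (-2.15 on the log2 scale, SE 0.283, edgeR adjusted p = 0.00183). Ccnb1ip1 (ENSMUSG00000071470), which encodes HEI10, was at 4.48, 5.91 and 5.89 CPM in control testes, against 1.49, 1.47 and 1.99 CPM in cKO testes. It fell 3.28-fold (-1.71, SE 0.241, edgeR adjusted p = 0.0023). In both genes the lowest control was well above the highest cKO library.

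Of the heterodimer genes, Msh5 fell and Msh4 did not pass the test. Msh5 (ENSMUSG00000007035) was at 4.59, 4.23 and 4.87 CPM in control testes, against 2.08, 2.41 and 2.52 CPM in cKO testes. Its groups were tight and apart, with a 1.95-fold fall (-0.96 on the log2 scale, SE 0.208, 95% interval -1.43 to -0.49, edgeR adjusted p = 0.0119). The call was lost without cKO library 1 (-0.88, edgeR adjusted p = 0.0594) or cKO library 2 (-0.98, edgeR adjusted p = 0.0541), and adjusted p ran from 0.00238 to 0.0594 over all alternatives. Msh4 (ENSMUSG00000005493) was at 1.53, 2.67 and 1.26 CPM in control testes, against 0.455, 1.23 and 0.597 CPM in cKO testes, from 29, 48 and 21 counts against 7, 21 and 9. Library 2 was the highest of its group in both genotypes, and the highest cKO value nearly met the lowest control. The log2 fold change was -1.23 (SE 0.45, 95% interval -2.25 to -0.22, edgeR adjusted p = 0.0736). The threshold was met when control library 1 was left out (-1.37, edgeR adjusted p = 0.0496), with the replicate number as a block (-1.28, 0.0399) and with limma on the deposited FPKM values (-1.08, 0.0454). It was -0.86 without control library 2 and -1.78 without cKO library 2, and adjusted p ran from 0.0399 to 0.229 over all alternatives.

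Mlh3 (ENSMUSG00000021245), which encodes a subunit of the crossover endonuclease, was the member whose groups overlapped. It was at 27.4, 43.1 and 34.4 CPM in control testes, against 34.7, 37.6 and 40.8 CPM in cKO testes. All 3 cKO values lay within the control range. The log2 fold change was 0.11 (SE 0.158, 95% interval -0.25 to 0.47, edgeR adjusted p = 0.644). It was -0.06 without control library 1, 0.27 without control library 2 and -0.05 on the deposited FPKM values, so that no direction can be given. The interval does not reach the estimate of any of the other 7 genes. It overlaps the interval of Msh4 (-2.25 to -0.22), and a difference between Mlh3 and the others was not tested.

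**Figure D1:**
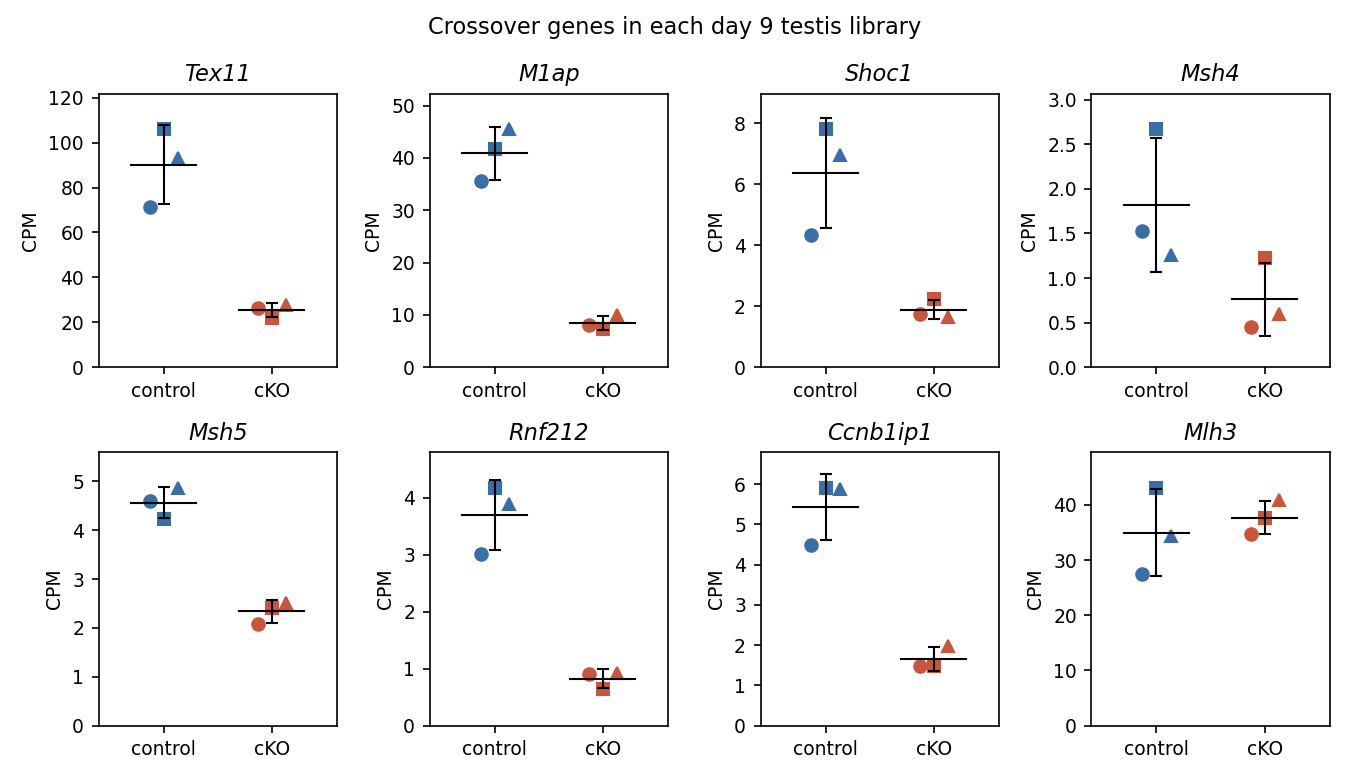
Level of each crossover gene in CPM (vertical axes, from 0) in the 3 control (blue) and 3 cKO (red) libraries. Circles, squares and triangles are libraries 1, 2 and 3, and black lines with bars are mean ± SD. In every panel but that of Mlh3 the cKO points lie below the control points, most narrowly for Msh4 (1.23 against 1.26 CPM).

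Because all 8 pan-germ-cell genes were lower, the members were also set against 2 of them, Ddx4 and Dazl. These are an RNA helicase gene and an RNA-binding protein gene of the whole germ line. Of the 8 genes of undifferentiated spermatogonia 2 were lower, 1 was higher and 5 did not pass the threshold. Whether the fall covered all germ-cell transcripts was not tested. Ddx4 was at 167, 220 and 202 CPM in control testes, against 75.5, 71.3 and 90.8 CPM in cKO testes (-1.31 on the log2 scale, SE 0.135, edgeR adjusted p = 0.000602). Dazl was at 451, 524 and 556 CPM in control testes, against 159, 149 and 187 CPM in cKO testes (-1.63, SE 0.124, edgeR adjusted p = 0.000219). With library sizes set to the geometric mean of these 2 genes, the median of all genes moved to 1.49, and 93% of 14422 tested genes were called higher and 0.721% lower, 93.7% in all. Changes on this scale are therefore read against 0, the change of the 2 reference genes, and beside 1.49, that of the median gene.

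On the scale of Ddx4 and Dazl, 1 member was lower, 1 was higher and 6 did not pass the threshold. M1ap fell further than the reference genes, by 0.82 on the log2 scale (SE 0.209, 95% interval -1.25 to -0.40, edgeR adjusted p = 0.000484), and this call held in each alternative run (-0.99 to -0.66, adjusted p 2.78e-05 to 0.00463). Stage markers moved on this scale too: of the 8 genes of differentiation and meiotic entry 4 were lower and 1 higher (median -0.60), among them Stra8 at -0.93, Meioc at -2.12 and Dmrtb1 at -3.02. Of the 8 genes of undifferentiated spermatogonia 6 were higher (median 1.12). Among all tested genes 93% were higher and 0.721% lower on this scale (median 1.49), so these 6 show no rise beyond the background. The part of the stage markers in the change of M1ap was not tested. In single libraries the log2 ratio of M1ap to the mean of Ddx4 and Dazl was -2.95, -3.02 and -2.88 in the controls and -3.76, -3.83 and -3.72 in the cKO. The gap between groups was many times the spread within them, although an exact permutation test of 3 against 3 libraries cannot go below p = 0.1, the value it gave (two-sided, 0.133 adjusted over the 8 genes). Mlh3 was higher relative to the reference genes, by 1.59 (SE 0.192, edgeR adjusted p = 5.71e-09), close to the 1.49 of the median gene.

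For the other 6 members a difference from Ddx4 and Dazl was not shown. Rnf212 was at -0.69 (95% interval -1.43 to 0.06, edgeR adjusted p = 0.0736) and Tex11 at -0.34 (-0.71 to 0.02, edgeR adjusted p = 0.0704). In both, all 3 cKO ratios lay below all control ratios, with -6.86, -7.25 and -7.09 against -6.50, -6.33 and -6.41 for Rnf212. For Tex11 the ratios were -2.04, -2.22 and -2.23 against -1.94, -1.68 and -1.84. Both passed when Ddx4 alone was the reference (-0.85 and -0.50, edgeR adjusted p = 0.0338 and 0.0133), and Tex11 also without control library 1 (-0.40, 0.0194). Over all alternatives their adjusted p ran from 0.0338 to 0.205 and from 0.0133 to 0.324. Ccnb1ip1 was at -0.25 (95% interval -0.89 to 0.39) and Shoc1 at -0.25 (-0.88 to 0.39). The ratios of Ccnb1ip1 were -6.17, -6.11 and -6.01 against -5.93, -5.84 and -5.82, all cKO below all control, whereas the groups of Shoc1 overlapped. These intervals are too wide to tell a moderate further fall from none. The share of all genes whose ratios separate in this way was not counted, so the separations add no support to a further fall.

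Msh5 was higher relative to the germ-cell reference genes in each cKO library, without passing the test. Its log2 ratio to Ddx4 and Dazl was -5.89, -6.31 and -6.10 in the controls and -5.70, -5.40 and -5.68 in the cKO, and all cKO values lay above all control values. The share of all genes with this order was not counted, and the median gene was at 1.49 on this scale. The fit gave 0.50 (95% interval -0.13 to 1.12, edgeR adjusted p = 0.121). With Dazl alone as the reference it passed (0.66, edgeR adjusted p = 0.0392; 0.0392 to 0.317 over all alternatives). Msh4 was at 0.25 (95% interval -0.65 to 1.16, edgeR adjusted p = 0.583), with overlapping groups, and turned to -0.39 without cKO library 2.

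**Figure D2:**
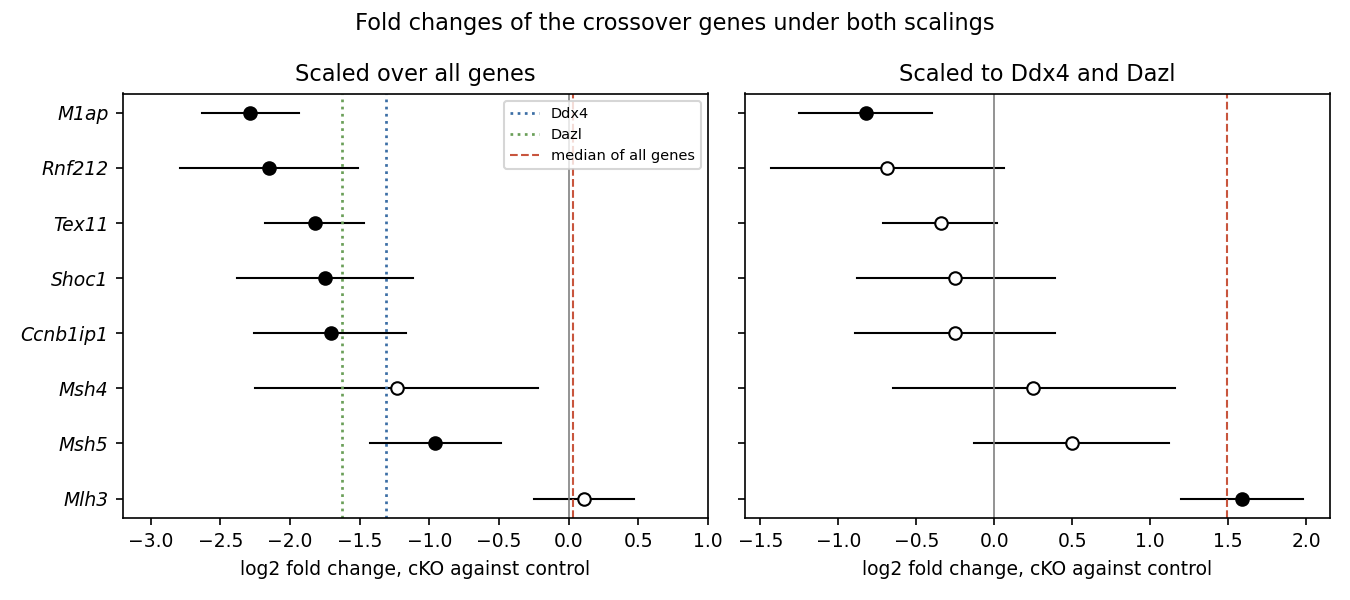
Log2 fold change, cKO against control, of each member (points) with its 95% interval (bars), scaled over all genes (left) and to Ddx4 and Dazl (right). Filled points passed an edgeR adjusted p under 0.05, dotted lines on the left mark Ddx4 (-1.31) and Dazl (-1.63), and dashed lines mark the median of all genes (0.03 and 1.49). On the right, M1ap lies below 0 and Mlh3 near the median gene.

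**Figure D3:**
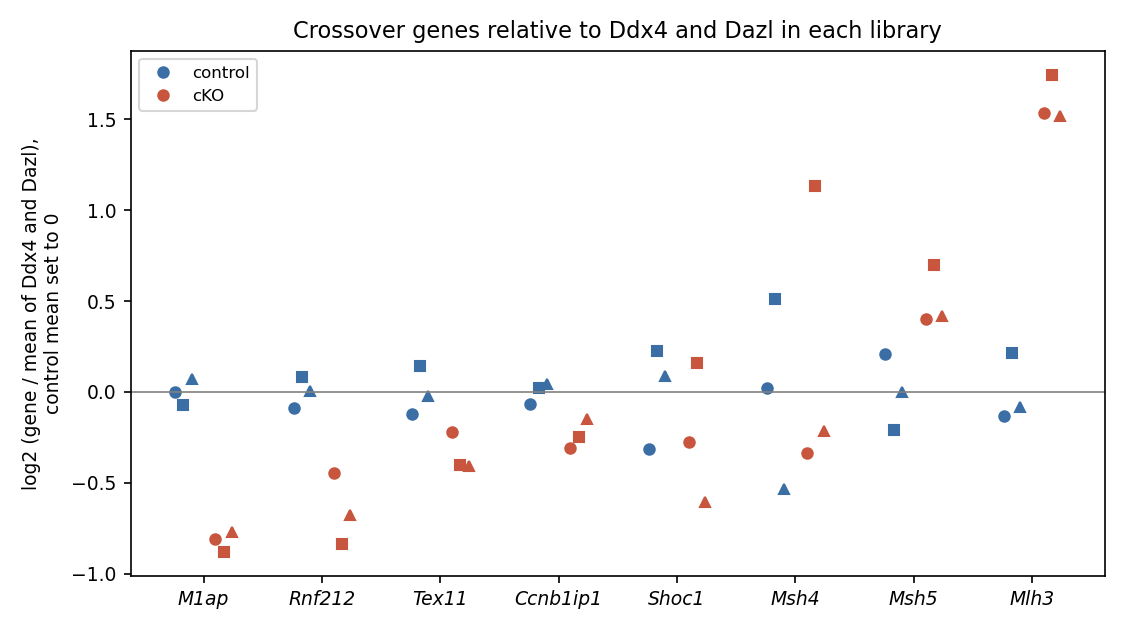
Log2 ratio of each member to the mean of Ddx4 and Dazl in each library (vertical axis), with the control mean of each gene set to 0. Blue is control and red is cKO, and circles, squares and triangles are libraries 1, 2 and 3. The cKO points of M1ap lie 0.82 below the control mean on average and those of Mlh3 above it, and those of Msh4 and Shoc1 are mixed with the controls.

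Within 3 pairs of partners, unequal change was not shown. The log2 ratio of Msh4 to Msh5 was -1.57, -0.66 and -1.92 in the controls and -2.12, -0.95 and -2.02 in the cKO, a difference of -0.32 (exact permutation test, two-sided, p = 0.5, 0.75 adjusted over the 3 pairs). That of Tex11 to Shoc1 differed by -0.10 (exact permutation p = 0.9, also adjusted). Without single libraries these differences ranged from -0.69 to 0.05 and from -0.25 to 0.13. The ratio of Rnf212 to Ccnb1ip1 was -0.57, -0.50 and -0.59 in the controls and -0.70, -1.15 and -1.08 in the cKO. Its groups did not overlap, and its difference of -0.42 had an exact permutation p of 0.1, the smallest that 3 against 3 allows (0.3 adjusted).

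Of 7 other genes that promote crossovers and were matched and tested, 4 fell and 0 rose (edgeR, with the same counts by DESeq2 and limma-voom and 0 higher at an unadjusted p under 0.05), with a median of -0.66. Hfm1, a helicase gene of the same pathway, was at 4.85, 9.42 and 10.8 CPM in control testes, against 2.34, 1.88 and 3.05 CPM in cKO testes, a 3.44-fold fall (edgeR adjusted p = 0.00623). Rnf212b, a paralogue of Rnf212, fell 2.62-fold, from 6.20 ± 0.638 to 2.36 ± 0.471 CPM (edgeR adjusted p = 0.00354). Prr19, a factor of late crossover maturation, fell 3.37-fold, from 10.8 ± 0.652 to 3.20 ± 0.0427 CPM (edgeR adjusted p = 0.00037). Exo1, a nuclease gene of mismatch repair and of crossover resolution, fell 1.58-fold, from 58.5 ± 5.17 to 37.1 ± 3.60 CPM (edgeR adjusted p = 0.00421; 0.166 on the deposited FPKM values and 1.53e-05 to 0.166 over all alternatives). Cntd1, a cyclin-like partner of PRR19 (-0.29), Mcmdc2 (-0.30) and Cdk2 (0.08) did not pass. Spo16 and Redic1 were not matched to an ID.

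Among genes that resolve or dissolve recombination intermediates in all dividing cells, 0 of 10 passed in either direction by edgeR, DESeq2 or limma-voom, also at an unadjusted p under 0.05. Their log2 fold changes ran from -0.35 for Eme1 to 0.26 for Slx4, with a median of -0.14. Mus81, the nuclease partner of Eme1, was at 15.9 ± 2.03 and 16.7 ± 0.865 CPM, and the Bloom helicase gene Blm at 58.7 ± 12.3 and 48.5 ± 1.98 CPM. Without control library 1, 3 of them, Blm, Top3a and Fancm, passed as lower (-0.46, -0.37 and -0.35), and Slx4 passed as higher without control library 2 (0.47, edgeR adjusted p = 0.0111). Without cKO library 3, Eme1 passed as lower (-0.58, edgeR adjusted p = 0.0408). Firrm was not matched to an ID.

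The general mismatch repair relatives of Msh4, Msh5 and Mlh3 lay between -0.45 and 0.30. Of 4, Pms1 fell and 0 rose (median -0.22). Pms1, a MutL homologue gene, was at 24.0 ± 3.17 CPM in control and 17.6 ± 1.39 CPM in cKO testes (1.37-fold, edgeR adjusted p = 0.038). Its call was lost without control library 2 or 3, without any 1 cKO library, with the replicate block and on the deposited FPKM values, and 3 of the 4 fell without control library 1. By edgeR, DESeq2 and limma-voom 1 of the 4, Msh3, was higher at an unadjusted p under 0.05 (0.30, edgeR adjusted p = 0.0525), and it passed without control library 1 or 2 (0.0409 and 0.0241). Among MutS genes, the meiotic Msh4 (-1.23) and Msh5 (-0.96) stood below Msh6 (-0.21) and Msh3 (0.30). Among MutL genes the order was the opposite, with Mlh3 at 0.11 above Pms1 (-0.45) and Pms2 (-0.23). None of these differences between genes was tested directly.

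The values of the crossover genes lay near those of 2 other groups of meiotic prophase genes. Of 10 genes of the synaptonemal complex and its HORMA-domain proteins all 10 fell, with a median of -1.85 and a range from -2.18 (Syce3) to -0.46 (Six6os1, edgeR adjusted p = 0.0274, a call lost without control library 3 or any 1 cKO library, and on FPKM). Of 13 tested genes of break formation and strand exchange 9 fell and 0 rose, with a median of -1.49, from -2.35 (Mei1) to -0.15 (Mnd1); Spo11 and Meiob were too low to test. By DESeq2, 10 of the 13 fell and 0 rose, and by limma-voom 9 and 0. On the scale of Ddx4 and Dazl the medians were -0.37 for the synaptonemal complex genes, -0.01 for the break and exchange genes and -0.25 for the 8 crossover genes. Relative to Ddx4 and Dazl, 4 of the 7 other pro-crossover genes, all 10 resolution genes and all 4 mismatch repair genes were higher, against 93% of all genes. On that scale 3 synaptonemal complex genes (Sycp1, Sycp3 and Tex12, at -0.59, -0.67 and -0.68) and 1 break gene (Mei1, at -0.86) were lower, beside M1ap at -0.82. Higher on it were 1 synaptonemal complex gene (Six6os1, at 1.03) and 4 break and exchange genes (Psmc3ip, Mnd1, Brca2 and Brme1, at 1.20, 1.31, 1.32 and 0.90). The break and exchange genes that did not pass scaled over all genes were Psmc3ip (-0.24), Mnd1 (-0.15), Brca2 (-0.18) and Brme1 (-0.56). Without control library 1, Brca2 (-0.49, edgeR adjusted p = 0.00569) and Brme1 (-0.68, edgeR adjusted p = 0.0273) passed as lower, and 11 of the 13 fell.

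**Figure D4:**
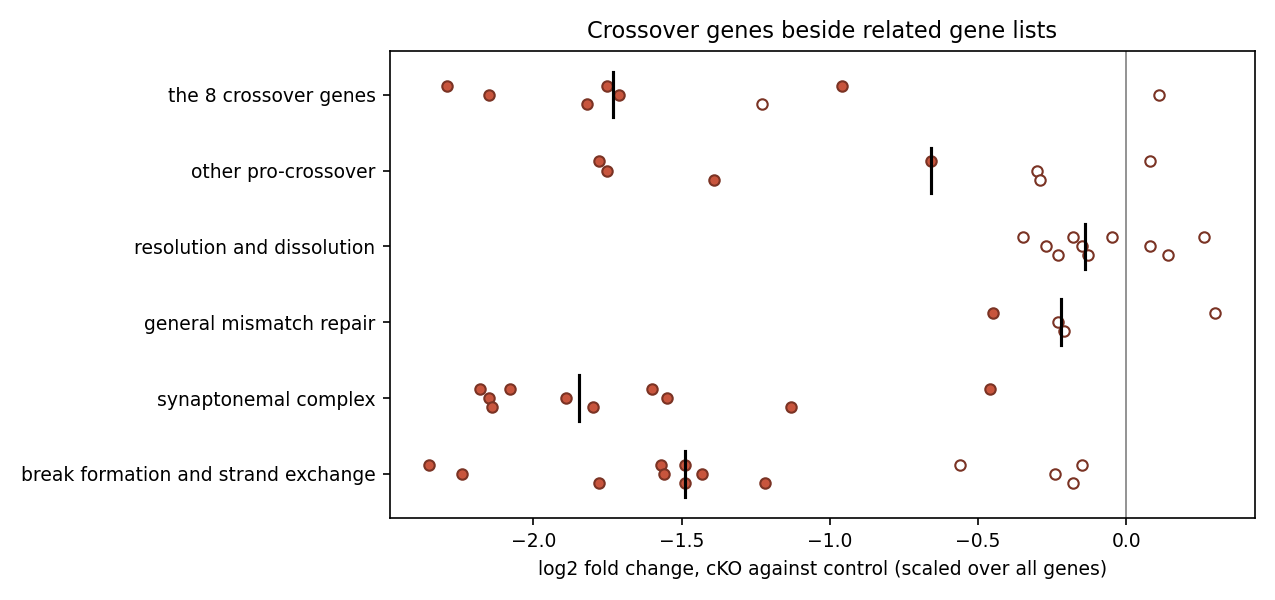
Log2 fold change, cKO against control and scaled over all genes (horizontal axis), of each tested gene in 6 lists, 1 point a gene. Filled points passed an edgeR adjusted p under 0.05, and black bars are list medians. The 8 crossover genes (median -1.73) lie beside the synaptonemal complex genes (-1.85), and the resolution and mismatch repair genes near 0 (-0.14 and -0.22).

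Across the 6 libraries, the gene whose profile was most like the average of the 8 members was Hormad2, a HORMA-domain gene of meiotic chromosome axes. Likeness was the root mean square distance between log2 CPM profiles centred on their means, over 12503 other genes, and was 0.0629 for Hormad2. It had 5.11, 6.63 and 6.49 CPM in control testes, against 1.95, 2.11 and 2.12 CPM in cKO testes. Next came Tdrkh, of the piRNA pathway (0.0918), Galnt6, a glycosyltransferase gene (0.0968), Uba1y, a Y-linked ubiquitin-activating enzyme gene (0.0975), and Ciart, a circadian repressor gene (0.0976). Their log2 fold changes ran from -1.55 (Hormad2) to -1.40 (Ciart), a smaller fall than the median of the 8 members (-1.73). The average used for likeness includes Mlh3 (0.11), which was not lower.

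As the sources used here do not state a strand setting for the counts, the genes beside or across each member were looked up by their order in RefSeq. None of the genes that overlap a member was tested. Of 10 tested neighbours, 2 passed, both lower, a share near the 13.9% called lower and 25% called in all among tested genes: Sema4f beside M1ap (-1.45, edgeR adjusted p = 0.00263) and Eif2b2 beside Mlh3 (-0.51, edgeR adjusted p = 0.0152). The other 8, among them Dlg3 beside Tex11 (0.07) and Sapcd1 beside Msh5 (0.45), did not pass.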

How the data were processed

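For each gene and library the authors deposited a count and an FPKM value in 1 table. StringTie 1.3.1 and RSEM are named, without their roles, per the submitters' processing notes. The deposited counts are whole numbers and were taken as estimated counts rounded by the authors, since in every library 3 to 21 genes with an FPKM above 0 have 0 counts. The FPKM values the authors deposited are scaled to length and library size. The aligner, build, annotation and strand setting: not given in the sources used here. Of 22274 IDs, 22219 had a symbol in the reference table, and older names went through RefSeq synonyms.

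Genes were kept by filterByExpr (minimum count 10), scaled by TMM and tested with edgeR 4.0.16 (glmQLFit, glmQLFTest, R 4.3.3) without covariates, with Benjamini-Hochberg adjustment and a threshold of 0.05. Genes left out held 0.063% of counts. SE is the log2 fold change divided by the square root of F. The second fit set library sizes to the geometric mean of the Ddx4 and Dazl counts and did not test these 2 genes. Ratios per library used log2 CPM with a prior count of 0.5. The procedure was tested on simulated data. Alternatives were DESeq2 1.42.0, limma-voom (limma 3.58.1), other scalings, filters and reference genes, a replicate block, and each library left out in turn; limma on log2(FPKM + 0.1) was added after seeing the data. Members and lists were chosen with earlier results of these data known, and some listed genes are not reported here and enter no list count, median or plot. Genes were named by rule: the members, Ddx4, Dazl, Dtl, the listed genes, neighbours, and the 5 nearest profiles among genes whose mean log2 CPM was 1 or more.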

Additional observations from a re-analysis of the deposited data

How the results depend on the processing

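With the log2 fold changes scaled over all genes, 113 of 120 member values over 15 alternatives kept their direction and side of the threshold, and on the scale of Ddx4 and Dazl 107 of 112 over 14. The number of members lower was 5 to 7 when single libraries were left out, and 0 were higher in each alternative. On the scale of Ddx4 and Dazl, 1 to 2 members were lower when single libraries were left out, 3 with Ddx4 alone, and 2 were higher with Dazl alone. In ratios per library, Ccnb1ip1, Tex11 and M1ap were at -0.39, -0.50 and -0.98 against Ddx4 alone and at -0.07, -0.18 and -0.66 against Dazl alone. Pairing by the numbers 1 to 3 was not seen (correlations of same-numbered deviations -0.07, -0.06 and 0.05), and no library correlated best with its own number. Deviations from means of 3 libraries cannot exclude pairing. With the replicate block 2822 genes were called in place of 3607, Msh4 was at -1.28, and 0 mismatch repair relatives fell (also 0 with FPKM), against 1. Leaving out single libraries gave 1355 to 5256 called genes, 0 to 3 mismatch repair and 0 to 3 resolution genes lower; these fits have fewer samples. With total-count scaling 2421 genes were lower and 1109 higher, and with FPKM 2187 and 855, against 2008 and 1599. On FPKM, Mlh3 was at -0.05 and Mcmdc2 at 0.02. Left-out libraries turned the sign of genes near 0, none of them called on that scale with all 6 libraries: Mlh3 (-0.06 to 0.27), Gen1 (-0.02 to 0.27), Rmi2 (-0.32 to 0.06), Psmc3ip (-0.38 to 0.01), Mnd1 (-0.29 to 0.02), Mus81 (-0.02 to 0.15), Fignl1 (-0.12 to 0.03), Fancm (-0.35 to 0.07) and Brca2 (-0.49 to 0.08), and Msh4 on the scale of Ddx4 and Dazl (-0.39 to 0.56). The cause was not tested. Msh4 had 7 to 48 counts a library.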
